A study of Mus musculus with 9 samples.

Results

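The genes described here are 33 components, receptors and regulators of the complement system, followed across the livers of control mice, mice with diet-induced nonalcoholic steatohepatitis (NASH) and NASH mice that had been trained on a treadmill. They were selected by their gene symbols, matched through Entrez Gene identifiers. All 33 were found among the 17846 gene rows of the expression files. By their usual main source in liver, 21 encode plasma proteins made by hepatocytes, 7 are typical of macrophages and other myeloid cells, and 5 have another or a mixed source. Of the 33 genes, 32 passed the filter on low counts and were tested. The exception was Cfd, the protease adipsin of fat cells, which had between 0 and 15 estimated counts per liver.

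RNA sequencing had been done on liver tissue of 9 male C57/BL mice of WT genotype, 3 per group, with 1 library per mouse. Control mice ate normal chow and stayed sedentary. NASH mice stayed sedentary on the atherogenic Ath diet, which contains cholesterol and cholate, for 20 weeks. NASH+Exercise mice ate the same diet and ran on a treadmill during the last 8 of those weeks, after 12 weeks of diet alone, with training starting at 20 weeks of age. All mice were fasted overnight before the livers were taken. Every p-value below weighs a difference between groups against the differences among mice, with 3 mice per group. In the main fit the spread was estimated from all 9 mice together.

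The estimated counts summed to between 20085976 and 22495408 per mouse. Levels of 8 hepatocyte markers, Alb among them, were summed in TPM (a share of all transcripts that allows for their length). The sums lay between 103312 and 111425 TPM in Control, 90249 and 112882 in NASH and 77239 and 100005 in NASH+Exercise. Every exercised mouse was thus below every Control mouse, while NASH and Control overlapped. Differences between groups are given as log2 fold changes from edgeR after TMM scaling, which sets the middle of the gene distribution equal between libraries. The TMM factors of Control mice lay between 0.80 and 0.976, those of NASH mice between 1.09 and 1.23, and those of exercised mice between 0.912 and 1.08. With library size alone, the median of all 13619 tested genes moved by 0.36 (log2) in NASH against Control, by -0.23 in NASH+Exercise against NASH and by 0.15 in NASH+Exercise against Control, instead of 0.01, -0.03 and 0.00 after TMM. This matters for the hepatocyte-made genes, many of which differ between groups by amounts of that size. Levels per mouse are given as CPM (counts scaled to a common library size) after TMM, the scale of the test, and TPM is used where different genes are compared with each other.

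Complement is a set of plasma proteins that circulate inactive and cut or bind one another in a fixed order once triggered. Recognition molecules (C1q on bound antibody, mannose-binding lectins and ficolins on sugars) carry proteases that build enzymes called convertases. The convertases split C3 and C5, which releases small peptides for receptors on myeloid cells and starts the assembly of a membrane pore from the terminal components, while soluble and membrane-bound regulators hold each step in check. Hepatocytes make most of the plasma components, whereas C1q in liver comes mainly from Kupffer cells and other macrophages.

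Several members lie side by side in the genome (all positions on GRCm38.p6). The 3 chains of C1q occupy one stretch of chromosome 4, with C1qb at chr4:136880126-136886200, C1qc at chr4:136889801-136892936 and C1qa at chr4:136895916-136898844. C8a (chr4:104815679-104876487) and C8b (chr4:104766317-104804548) are also neighbours there. The genes of C4 and of the proteases that join it in the convertases lie together on chromosome 17, with C4b at chr17:34728139-34743902, C4a at chr17:34809092-34823460, Cfb at chr17:34856374-34862514 and C2 at chr17:34862602-34882100. Susd4 lies at chr1:182764044-182896596.

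Promoter windows from 250 bases before to 50 bases after a gene's start were given in the RefSeq table of GRCm38.p6 for 24 of the 33 members, and not for C1qa, C2, C4a, C4b, Cfb, Cfi, Clu, Masp1 and Serping1. The windows of 5 members are shown, each chosen together with a motif that it carries. They are 3 of myeloid genes that were far higher in NASH and 2 of plasma proteins made by hepatocytes. They are written 5′ to 3′ on the strand of the gene. The windows lie at chr4:136886151-136886450 (minus strand, C1qb), chr4:136892865-136893164 (minus, C1qc), chrX:20931506-20931805 (minus, Cfp), chr17:57228087-57228386 (minus, C3) and chr15:6445096-6445395 (plus, C9). Capitals mark the core bound by ETS factors (GAGGAA, or its reverse complement TTCCTC) in the first 3, and in the last 2 the C/EBP motif TTGCNNAA.
C1qb: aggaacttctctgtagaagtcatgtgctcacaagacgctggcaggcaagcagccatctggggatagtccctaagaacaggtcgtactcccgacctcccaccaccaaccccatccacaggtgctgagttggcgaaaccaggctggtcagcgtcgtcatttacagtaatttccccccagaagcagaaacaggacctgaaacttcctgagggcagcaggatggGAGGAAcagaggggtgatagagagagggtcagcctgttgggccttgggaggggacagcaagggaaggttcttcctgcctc
C1qc: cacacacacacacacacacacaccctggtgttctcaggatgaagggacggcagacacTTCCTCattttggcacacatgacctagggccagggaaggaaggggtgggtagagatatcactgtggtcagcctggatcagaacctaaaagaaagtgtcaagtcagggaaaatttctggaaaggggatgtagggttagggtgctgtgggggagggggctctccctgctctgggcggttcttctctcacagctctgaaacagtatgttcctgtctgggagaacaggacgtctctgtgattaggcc
Cfp: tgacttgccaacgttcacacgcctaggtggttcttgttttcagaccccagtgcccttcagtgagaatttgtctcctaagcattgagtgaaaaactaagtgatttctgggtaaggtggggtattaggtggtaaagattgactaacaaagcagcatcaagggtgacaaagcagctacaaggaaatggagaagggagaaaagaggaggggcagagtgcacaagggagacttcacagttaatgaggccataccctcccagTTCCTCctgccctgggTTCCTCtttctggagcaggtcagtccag
C3: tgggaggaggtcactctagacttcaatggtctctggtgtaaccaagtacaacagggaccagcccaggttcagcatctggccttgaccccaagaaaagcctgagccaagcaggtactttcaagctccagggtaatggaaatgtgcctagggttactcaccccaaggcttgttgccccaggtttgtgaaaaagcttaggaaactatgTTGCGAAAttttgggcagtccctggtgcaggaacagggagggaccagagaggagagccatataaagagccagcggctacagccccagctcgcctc
C9: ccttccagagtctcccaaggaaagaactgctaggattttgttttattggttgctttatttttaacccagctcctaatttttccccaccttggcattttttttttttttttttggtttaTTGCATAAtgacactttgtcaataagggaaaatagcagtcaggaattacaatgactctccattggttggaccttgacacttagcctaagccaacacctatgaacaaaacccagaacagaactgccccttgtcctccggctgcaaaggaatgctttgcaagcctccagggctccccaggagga
All motifs were searched on both strands, and no ETS core match in a member's window overlapped a match of another motif. The ETS core stood in the windows of 4 of 6 myeloid members with a window (C1qb, C1qc, Cfp and Fcna) and of 1 of 13 hepatocyte members (C1ra), against 31.3% of 27025 genes. C3ar1 and C5ar1, also far higher in NASH, had no match in their windows, and Fcna, which had matches, was not higher in NASH. C/EBP was matched in 4 of 13 hepatocyte members (C1ra, C1s1, C3 and C9) and in 0 of 6 myeloid members, against 12.2% of genes. The STAT motif TTCNNNGAA was found in C1ra, C8a, Masp2 and C7, against 9.55% of genes, and the NF-kB motif (GGG and CC with 5 bases of any kind between them), which 53.5% of genes carry, in 11 members. The IRF motif (GAAA repeated after 2 bases of any kind) was found in Cd59a alone (3.99% of genes), and the HNF4 letters CAAAGTCCA in 0 of the 24 (0.555% of genes). These matches describe letters in the windows and were not tested as binding sites.

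In Control livers C3, the protein on which all routes meet, was the most abundant member, with 3247, 3197 and 3402 TPM in the 3 Control mice. It was followed by Clu, clusterin, a chaperone that binds terminal complexes, at a mean of 2059 ± 188 TPM (SD, n = 3). Serping1, the inhibitor of the starting proteases, had 982 ± 88.6 TPM and Cfb, factor B of the alternative pathway, 652 ± 67.8 TPM. The C1q chains were far lower at 41.2 ± 11.1, 34.1 ± 11.03 and 35.00 ± 12.7 TPM for C1qa, C1qb and C1qc. At the bottom stood C7 at 0.493 ± 0.0802, C3ar1 at 0.49 ± 0.295, Cfd at 0.447 ± 0.313 and C5ar1 at 0.443 ± 0.116 TPM, which overlap one another within their spread. All 33 members together took 1.07, 1.14 and 1.09% of the TPM total in Control, 2.07, 1.85 and 1.8% in NASH and 1.77, 1.9 and 1.56% in NASH+Exercise. The share was higher in every mouse on the Ath diet than in every Control mouse.

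**Figure D1:**
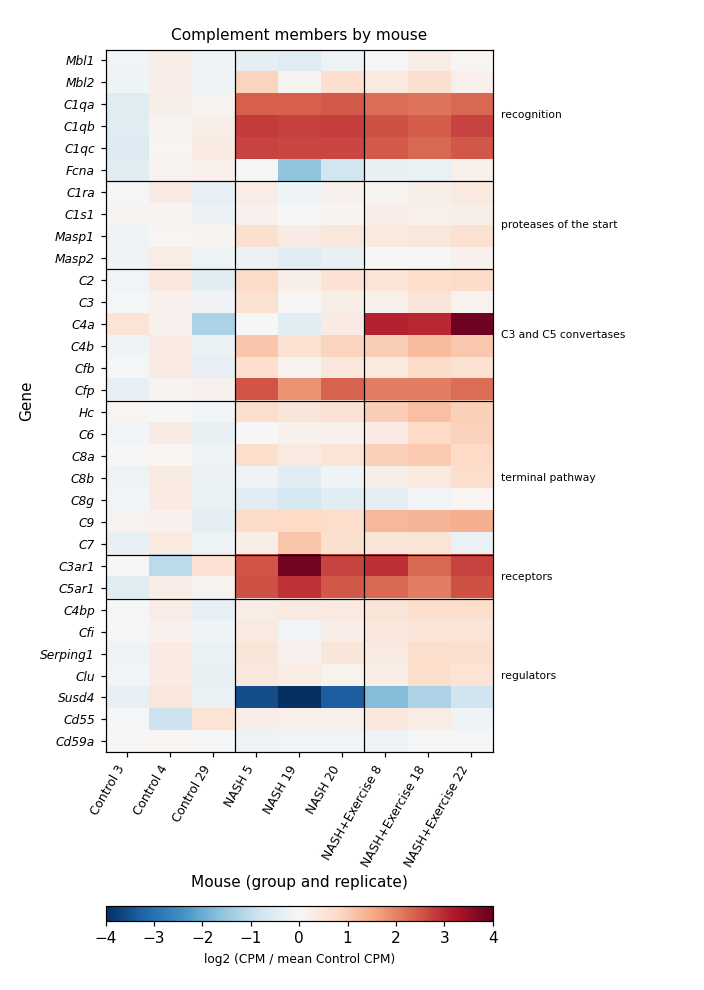
Heat map of log2 CPM after TMM relative to the mean of the Control mice, for the 32 tested members (rows, ordered by role) in the 9 mice (columns, named by group and replicate). The C1q chains, Cfp, C3ar1 and C5ar1 are high in all 6 mice on the Ath diet, Susd4 is lowest in the 3 NASH mice, and C4a is high in the 3 NASH+Exercise mice alone.

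A gene was called when its Benjamini-Hochberg adjusted p over all 13619 genes was under 0.05 and its absolute log2 fold change above 1. In NASH against Control, 7 of 32 members were called, 6 higher and 1 lower, where 18.3% of all genes were called (15.3% higher and 3.03% lower). Over all members that count is near the background and says nothing about complement as a whole. The calls were spread over the sources as 6 of 7 myeloid members, 0 of 21 hepatocyte members and 1 of 4 others. Of the 21, 9 had an unadjusted p under 0.05 in edgeR, a share near that of all genes (6170 of 13619). DESeq2 called 0 of the 21 and limma on TPM 4. The median log2 fold change was 2.64 for the myeloid members and 0.32 for the hepatocyte members, beside 0.01 for all genes. By the adjusted p alone, without the fold threshold, 14 members passed, 12 higher and 2 lower, against 35.6% of all genes.

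Between NASH+Exercise and NASH, 2 of 32 members were called, both higher, where 0.14% of all genes were called (0.103% higher). These were C4a and Susd4. Of the 21 hepatocyte members, 12 were higher in every exercised mouse than in every NASH mouse (CPM), where 9.16% of all genes were, with a median log2 fold change of 0.29 that was 0.08 under library size alone. In deposited TPM, a scale added after the data were seen, that count was 5 of 21 (C4a, C8b, C8g, C9 and Masp2) against 1.26% of all genes, and Masp1 was lower. Of the 7 myeloid members, 3 were lower in every exercised mouse in CPM (14.9% of all genes) and 4 in TPM (37.6% of all genes). Between NASH+Exercise and Control, 11 of 32 were called, 10 higher and 1 lower, where 13.5% of all genes were (10.4% higher and 3.07% lower). They were 6 of 7 myeloid members and 4 of 21 hepatocyte members higher, and Susd4 lower. The comparisons share mice (NASH in the first 2, NASH+Exercise in the last 2, Control in the first and the last), so their values stand side by side below and are not counted as support for each other.

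**Figure D2:**
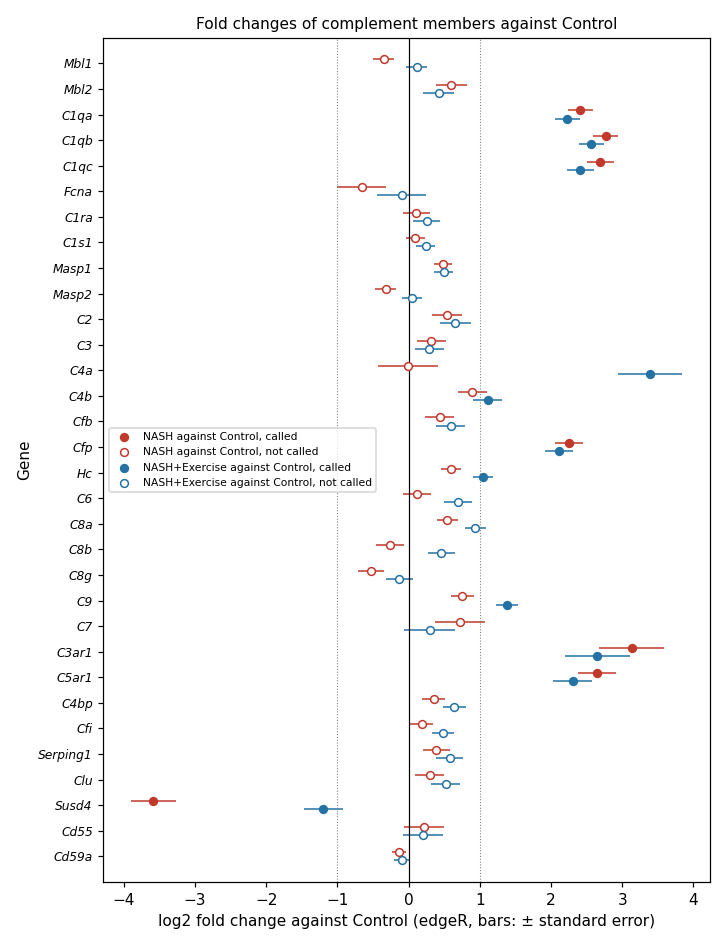
Log2 fold changes of the 32 tested members against Control from edgeR, in NASH (red) and in NASH+Exercise (blue). Bars are ± 1 standard error, filled points are called, and dotted lines mark the fold threshold. The myeloid members except Fcna lie between 2.11 and 3.13, most hepatocyte-made members lie within the dotted lines, C4a is far to the right in NASH+Exercise alone, and Susd4 is far to the left in NASH and nearer to 0 in NASH+Exercise.

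Among the recognition molecules, the 3 chains of C1q, the sensor of bound antibody, rose together in both groups on the Ath diet. C1qa (12259) was at 21.1, 34.97 and 32.8 CPM in Control, 157, 155 and 161 in NASH and 139, 133 and 144 in NASH+Exercise. C1qb (12260) was at 17.2, 25.6 and 28.7 CPM in Control, 165, 159 and 163 in NASH and 140.2, 129 and 155 in NASH+Exercise. C1qc (12262) was at 16.96, 25.4 and 30.1 CPM in Control, 158, 155 and 154 in NASH and 132, 118 and 136 in NASH+Exercise. In bulk tissue, more cells of a type and more RNA per cell cannot be told apart, and macrophage markers, given further on, moved with these genes. For each chain the lowest mouse on the Ath diet was above the highest Control mouse by a wide margin. In NASH against Control the log2 fold change was 2.41 ± 0.18 (SE, edgeR adjusted p = 7.89e-06) for C1qa, 2.77 ± 0.18 (SE, edgeR adjusted p = 5.3e-06) for C1qb and 2.69 ± 0.19 (SE, edgeR adjusted p = 6.94e-06) for C1qc. Against Control, NASH+Exercise showed 2.23, 2.57 and 2.41, with edgeR adjusted p of 1.93e-05, 1.2e-05 and 1.89e-05. In NASH+Exercise all 3 chains lay below all 3 NASH mice in CPM without overlap, but the differences of -0.18, -0.20 and -0.28 did not pass the test (edgeR adjusted p = 0.646, 0.612 and 0.483), and 14.9% of all genes were likewise lower without overlap. The 3 genes kept nearly equal TPM within a mouse: C1qc over C1qb was 0.995 to 1.06 in Control livers and 0.889 to 0.988 on the Ath diet, and C1qa over C1qb was 1.12 to 1.34 and 0.914 to 1.01, a difference that was not tested.

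Fcna, ficolin A, a sugar sensor of liver macrophages, did not pass the test in any comparison. It was at 24.9, 36.1 and 38.2 CPM in Control, 32.2, 10.8 and 19.98 in NASH and 26.97, 27.2 and 38.5 in NASH+Exercise, and the groups overlapped in every comparison. Its log2 fold change in NASH was -0.66 ± 0.34 (SE, edgeR adjusted p = 0.168), with NASH replicate 19 the lowest of all mice. Without NASH replicate 5 it became -1.11 (edgeR adjusted p = 0.0223), a call in the opposite direction to the other myeloid members. Of the mannose-binding lectins, both made by hepatocytes, Mbl2 was at 194, 261 and 197 CPM in Control, 406, 234 and 349 in NASH and 284, 341 and 249 in NASH+Exercise, which gave 0.60 in NASH at an edgeR adjusted p of 0.04999, with groups that overlapped. Mbl1 had -0.35 in NASH (edgeR adjusted p = 0.086) and 0.47 in NASH+Exercise against NASH (edgeR adjusted p = 0.196).

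Of the 4 proteases that recognition molecules carry, 1 passed the adjusted p in NASH, where 35.6% of all genes did. C1ra and C1s1, the partners of C1q, had 0.11 ± 0.19 and 0.09 ± 0.14 (SE) in NASH, with edgeR adjusted p of 0.704 and 0.631, against 2.41 to 2.77 for the C1q chains. Masp1 and Masp2 are the proteases of the lectin route. Masp1 was at 59.4, 69.5 and 72.8 CPM in Control, 105, 84.6 and 91.7 in NASH and 87.9, 92.95 and 103 in NASH+Exercise and was the one protease of this step to pass the adjusted p, at 0.48 ± 0.13 (SE, edgeR adjusted p = 0.0148) in NASH and 0.49 ± 0.13 (SE, edgeR adjusted p = 0.0184) in NASH+Exercise against Control. Masp2 had -0.32, 0.37 and 0.05 in the 3 comparisons, none past the test, and its sign in NASH turned to 0.04 under library size alone.

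The convertase genes split into C4b and properdin, which rose, and a larger set that did not pass the test in NASH. Cfp, properdin, which stabilises the alternative convertase and is made by myeloid cells, was at 10.6, 14.2 and 15.1 CPM in Control, 75.2, 46.2 and 67.9 in NASH and 54.9, 54.2 and 62.7 in NASH+Exercise. All 6 mice on the Ath diet were above all Control mice, with log2 fold changes of 2.25 ± 0.20 (SE, edgeR adjusted p = 2.03e-05) in NASH and 2.11 ± 0.20 (SE, edgeR adjusted p = 5.27e-05) in NASH+Exercise against Control. C3 was at 7907, 9264 and 7439.5 CPM in Control, 12500.2, 8484 and 9722 in NASH and 9358, 11766 and 9003 in NASH+Exercise, with groups that overlapped and a log2 fold change of 0.32 ± 0.20 (SE, edgeR adjusted p = 0.245) in NASH. In deposited TPM, by contrast, C3 was 3247, 3197 and 3402 in Control and 6308, 5139 and 5154 in NASH without overlap, a ratio of means of 1.69, which shows how far the choice of scale bears on a gene of this size of effect. C2 and Cfb, the proteases of the classical and alternative convertases, had 0.54 and 0.44 in NASH (edgeR adjusted p = 0.077 and 0.13). In NASH+Exercise against Control they had 0.66 and 0.59 (edgeR adjusted p = 0.0487 and 0.0631), of which C2 passed.

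C4a and C4b are the 2 mouse genes of component C4, and C4b was called in NASH+Exercise against Control while C4a was called in both comparisons of NASH+Exercise. C4b (12268), the main C4 gene, was at 886, 1249.9 and 826 CPM in Control, 2152, 1519 and 1842 in NASH and 1936, 2355 and 2102 in NASH+Exercise. Every mouse on the Ath diet was above every Control mouse, and the log2 fold change was 0.90 ± 0.20 (SE, edgeR adjusted p = 0.00585) in NASH and 1.11 ± 0.20 (SE, edgeR adjusted p = 0.0025) in NASH+Exercise against Control, the latter 0.97 without Control replicate 29. In NASH against Control, C4b was called under library size alone (1.26), with limma on TPM (1.34) and without Control replicate 4 (1.09). C4a (625018), known in mice as sex-limited protein because males make it, was at 23.3, 18.1 and 6.63 CPM in Control, 16.04, 11.8 and 20.02 in NASH and 136, 129 and 239 in NASH+Exercise. Control and NASH overlapped, and the lowest NASH+Exercise mouse was above the highest of the other 6. C4a had -0.01 ± 0.42 (SE, edgeR adjusted p = 0.991) in NASH, 3.40 ± 0.45 (SE, edgeR adjusted p = 0.0405) in NASH+Exercise against NASH and 3.39 ± 0.45 (SE, edgeR adjusted p = 0.000623) in NASH+Exercise against Control. C4b had, in NASH+Exercise against NASH, 0.21 ± 0.20 (SE, edgeR adjusted p = 0.654). The call of C4a in that comparison was lost in 7 of 9 fits that left out 1 mouse (Control replicate 3 or 4, any NASH mouse, or NASH+Exercise replicate 18 or 22). These 9 fits gave edgeR adjusted p from 0.00836 to 0.144, with log2 fold changes between 3.06 and 3.59.

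The division of reads between both genes is uncertain, since their longest transcripts are 96.1% identical over the aligned bases and 35.2% of 50-base windows of C4a occur unchanged in C4b. Both genes had estimated counts that were not whole numbers in all 9 libraries. C4a took 2.57, 1.43 and 0.797% of the C4a plus C4b counts in Control, 0.74, 0.768 and 1.08% in NASH and 6.54, 5.19 and 10.2% in NASH+Exercise. The 3 NASH+Exercise mice stood apart from the other 6. The mean share was 6.45 percentage points higher in NASH+Exercise than in NASH (exact two-sided permutation p = 0.1, the smallest that 3 mice against 3 allow). When the counts of both genes were summed before the fit, the log2 fold change was 0.89 in NASH (edgeR adjusted p = 0.00614), 0.31 in NASH+Exercise against NASH (edgeR adjusted p = 0.486) and 1.20 in NASH+Exercise against Control (edgeR adjusted p = 0.00158). The sum followed C4b, which held most of the counts.

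**Figure D3:**
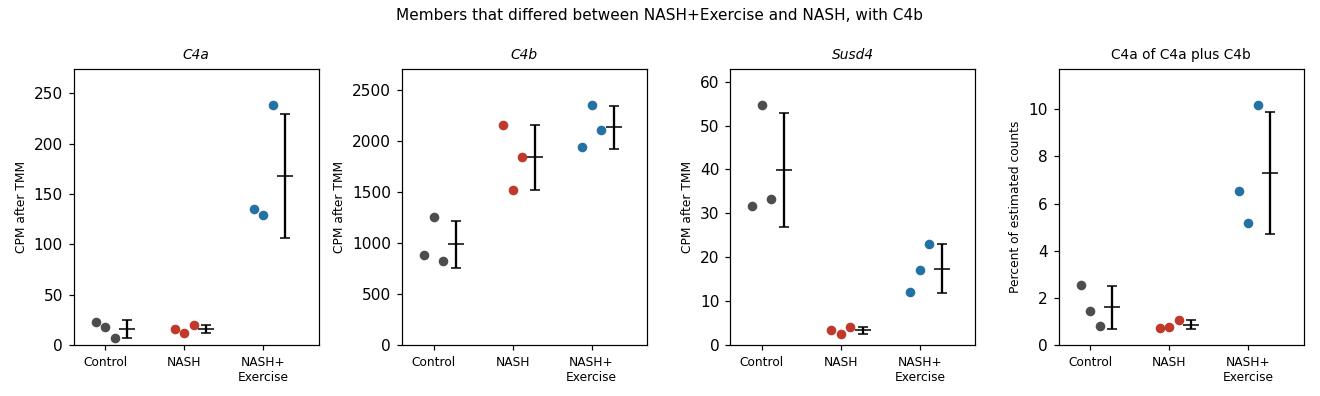
CPM after TMM of C4a, C4b and Susd4, and the percentage of C4a in the estimated counts of C4a plus C4b, for each of the 9 mice (points) with the group mean ± SD (n = 3). C4a and its share are high in the 3 NASH+Exercise mice alone, C4b is higher in both groups on the Ath diet, and Susd4 is near 0 in NASH with NASH+Exercise between NASH and Control.

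Of the 7 terminal components, which form the membrane pore, 3 rose in NASH by the adjusted p, against 21.2% of all genes. By the same test 1 fell, which is near the 14.4% of all genes that did. Hc (15139), the mouse gene of C5, was at 689, 668 and 610.2 CPM in Control, 1069.6, 916 and 989 in NASH and 1285, 1517 and 1269 in NASH+Exercise. C9 (12279), the unit that polymerises into the pore wall, was at 263, 266 and 181 CPM in Control, 404, 411 and 381 in NASH and 595, 610.4 and 642 in NASH+Exercise. C8a (230558), a chain of C8, was at 640.1, 649 and 559 CPM in Control, 997, 795 and 904 in NASH and 1192, 1261 and 1081 in NASH+Exercise. In CPM the groups formed separate steps in these 3 genes, with every NASH mouse above every Control mouse and every NASH+Exercise mouse above every NASH mouse. In TPM that held for C9, while NASH+Exercise and NASH overlapped in Hc and C8a. The log2 fold change in NASH was 0.60 ± 0.14 (SE, edgeR adjusted p = 0.00781) for Hc, 0.75 ± 0.16 (SE, edgeR adjusted p = 0.00417) for C9 and 0.55 ± 0.15 (SE, edgeR adjusted p = 0.0142) for C8a. The values for NASH+Exercise against Control were 1.05 ± 0.14 (SE, edgeR adjusted p = 0.000431) for Hc, 1.38 ± 0.16 (SE, edgeR adjusted p = 0.000178) for C9 and 0.94 ± 0.15 (SE, edgeR adjusted p = 0.00102) for C8a, of which Hc and C9 were called. Hc fell under the fold threshold without Control replicate 29 (0.98) or NASH+Exercise replicate 18 (0.96).

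C8g (69379), a lipocalin-like chain of C8, went the other way. It was at 283, 385 and 253 CPM in Control, 224, 188 and 226 in NASH and 232, 282 and 327 in NASH+Exercise, with NASH below Control and NASH+Exercise above NASH without overlap, and a log2 fold change of -0.53 ± 0.19 (SE, edgeR adjusted p = 0.0459) in NASH, which was -0.17 under library size alone. In TPM, C8g was at 470, 534 and 466 in Control and 475, 452 and 480 in NASH, which overlap. C8b, the remaining chain, was at 277, 410.2 and 269 CPM in Control, 284, 231 and 283 in NASH and 376, 419 and 521 in NASH+Exercise and had -0.26 ± 0.19 (SE, edgeR adjusted p = 0.326) in NASH, where the sign turned to 0.10 under library size alone. As a description, for pairs of genes picked after their values were seen, C8a over C8b in TPM was 1.44, 0.981 and 1.29 in Control, 2.18, 2.15 and 1.99 in NASH and 1.97, 1.88 and 1.29 in NASH+Exercise, and C9 over C8g was 0.474, 0.361 and 0.371 in Control, 0.939, 1.11 and 0.853 in NASH and 1.28, 1.09 and 0.998 in NASH+Exercise. Neither ratio depends on the scaling between libraries. C6 had 0.12 ± 0.20 (SE, edgeR adjusted p = 0.689) in NASH and 0.70 ± 0.20 (SE, edgeR adjusted p = 0.0249) in NASH+Exercise against Control. C7, which in these livers stayed between 0.41 and 1.6 TPM, had 0.72 ± 0.35 (SE, edgeR adjusted p = 0.133) in NASH.

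Between NASH+Exercise and NASH, 6 of 7 terminal genes were higher in every exercised mouse than in every NASH mouse (CPM), where 9.16% of all genes were. In edgeR 0 of 7 passed the test, and 5 had an unadjusted p under 0.05, beside 2078 of 13619 genes. DESeq2 gave 3 of 7 with an adjusted p under 0.05 and limma on TPM 0 of 7, and neither called any at the fold threshold. Their log2 fold changes were 0.72 for C8b, 0.63 for C9, 0.58 for C6, 0.45 for Hc, 0.40 for C8g and 0.39 for C8a, with edgeR adjusted p from 0.136 to 0.337. The exception was C7 at -0.42. Under library size alone the first 6 were 0.51, 0.42, 0.36, 0.25, 0.19 and 0.20. The summed TPM of these 6 genes was 1474, 1509 and 1429 in Control, 2286, 2258 and 2163 in NASH and 2667, 2643 and 2454 in NASH+Exercise. Of the 7 genes, 3 (C8b, C8g and C9) were higher in every exercised mouse than in every NASH mouse in TPM, where 1.26% of all genes were. On that scale Hc, C6 and C8a overlapped.

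**Figure D4:**
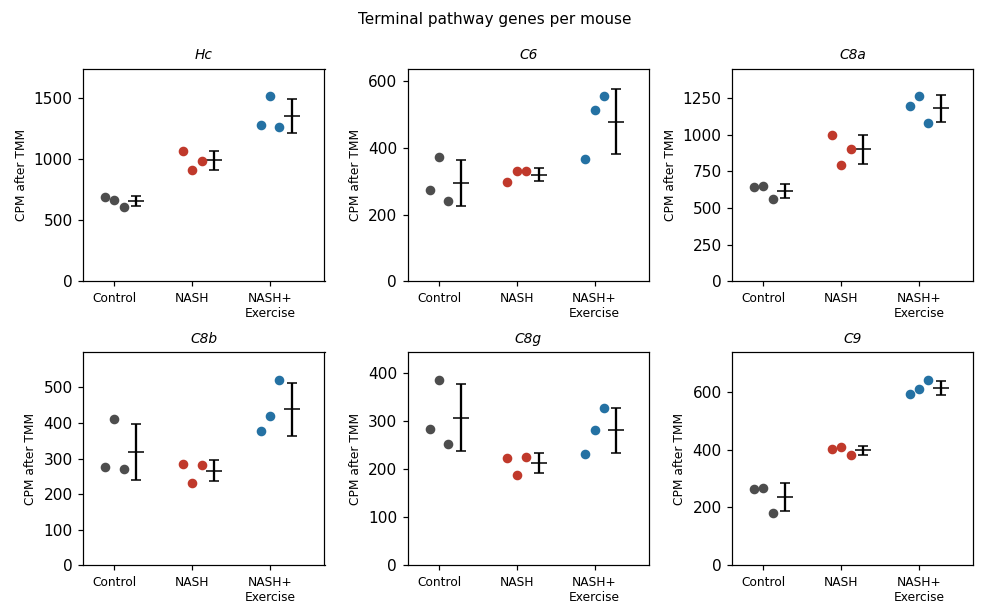
CPM after TMM of 6 terminal pathway genes in each of the 9 mice (points), with the group mean ± SD (n = 3). On this scale Hc, C8a and C9 step up from Control to NASH to NASH+Exercise, C8g is lowest in NASH, and in C6 and C8b the NASH+Exercise mice are above the NASH mice while NASH and Control overlap.

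Both receptors, C3ar1 and C5ar1, through which myeloid cells sense the peptides of C3 and C5, were rare and rose in the groups on the Ath diet. C3ar1 (12267) was at 1.4, 0.667 and 2.04 CPM in Control, 7.81, 19.6 and 8.88 in NASH and 10.5, 6.75 and 8.82 in NASH+Exercise. C5ar1 (12273) was at 0.537, 0.89 and 0.816 CPM in Control, 4.36, 5.55 and 4.17 in NASH and 3.67, 3.07 and 4.39 in NASH+Exercise. Neither gene overlapped between Control and the other groups, and NASH and NASH+Exercise overlapped in both. C3ar1 had 3.13 ± 0.45 (SE, edgeR adjusted p = 0.000568) in NASH and 2.65 ± 0.45 (SE, edgeR adjusted p = 0.00215) in NASH+Exercise against Control. C5ar1 had 2.64 ± 0.27 (SE, edgeR adjusted p = 4.57e-05) and 2.30 ± 0.27 (SE, edgeR adjusted p = 0.000187). NASH replicate 19 held the highest value of both, and without it C3ar1 in NASH+Exercise against NASH moved from -0.48 to 0.08.

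Of the regulators, Susd4 alone was called. Susd4 (96935), a sushi-domain protein that restrains complement activation, was at 31.6, 54.8 and 33.3 CPM in Control, 3.41, 2.52 and 4.04 in NASH and 12.05, 17.04 and 23.1 in NASH+Exercise, so the 3 groups did not overlap. It fell in NASH with a log2 fold change of -3.59 ± 0.31 (SE, edgeR adjusted p = 2.68e-05) and was 2.39 ± 0.31 (SE, edgeR adjusted p = 0.0405) in NASH+Exercise against NASH. NASH+Exercise was also below Control, with a log2 fold change of -1.20 ± 0.28 (SE, edgeR adjusted p = 0.0109). The call against NASH was lost in 6 of 9 fits that left out 1 mouse (Control replicate 3, any NASH mouse, or NASH+Exercise replicate 18 or 22). The 9 edgeR adjusted p were 0.0209 to 0.134 and the log2 fold changes 2.13 to 2.60. Below Control, the value was -0.88 without Control replicate 4 and -0.99 without NASH+Exercise replicate 8, under the fold threshold.

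The soluble regulators made by hepatocytes did not pass the test in NASH. C4bp, which binds C4, was 0.35, Cfi, the protease that degrades fragments of C3 and C4, 0.18, Serping1 0.39 and Clu 0.30, with edgeR adjusted p from 0.114 to 0.404. When NASH+Exercise was compared with Control, C4bp (0.64, edgeR adjusted p = 0.0148), Cfi (0.48, edgeR adjusted p = 0.0479) and Serping1 (0.58, edgeR adjusted p = 0.0489) rose by that test without reaching the fold threshold. The membrane regulators Cd55, which breaks up convertases, and Cd59a, which blocks the pore, had 0.22 ± 0.28 and -0.14 ± 0.10 (SE) in NASH, and the sign of Cd59a turned to 0.22 under library size alone. Cd55 and Cd59a each had counts that were not whole in all 9 libraries.

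The levels of the hepatocyte-made and of the myeloid members were also summed within each mouse. The 21 hepatocyte members summed to 10465, 11200.2 and 10559 TPM in Control, 19639.9, 17319 and 16963 in NASH and 16796, 18297 and 14866 in NASH+Exercise. The 7 myeloid members summed to 118, 152 and 213 TPM in Control, 1038, 1058 and 976 in NASH and 822, 669.9 and 709.6 in NASH+Exercise. In both TPM sums every mouse on the Ath diet was above every Control mouse, while in CPM after TMM the hepatocyte sums of NASH and Control overlapped. The ratio of means in NASH against Control was 1.67 for the hepatocyte members and 6.36 for the myeloid members, or 1.27 and 4.57 in CPM after TMM. In NASH+Exercise against NASH the ratio for the hepatocyte members was 0.93 in TPM and 1.12 in CPM after TMM, so its direction depends on the scale. The ratio of the hepatocyte to the myeloid sum, which no scaling between libraries alters, was 88.8, 73.9 and 49.5 in Control, 18.9, 16.4 and 17.4 in NASH and 20.4, 27.3 and 20.95 in NASH+Exercise. All NASH+Exercise mice lay above all NASH mice and below all Control mice. Sums of chosen members carry no test.

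**Figure D5:**
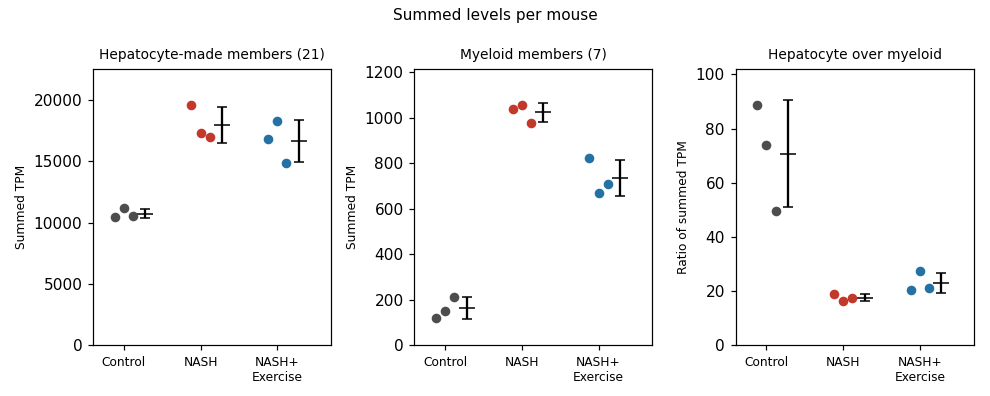
Summed TPM of the 21 hepatocyte-made members (left) and of the 7 myeloid members (middle), and the ratio of both sums (right), in each of the 9 mice (points) with the group mean ± SD (n = 3). Both sums are higher in every mouse on the Ath diet, the myeloid sum more so, and the ratio drops from a mean of 70.7 in Control to 17.6 in NASH and 22.9 in NASH+Exercise.

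How many hepatocyte members count as higher in NASH depends on the scaling. After TMM, 16 of 21 had a log2 fold change above 0 (51.0% of all genes did), and 6 rose and 1 fell by the adjusted p alone (21.2% and 14.4% of all genes). Under library size alone, 20 of 21 were above 0, where 79.1% of all genes were. On that scale 16 passed the adjusted p, all of them higher (37.6% of all genes passed in either direction). The 6 were C4b, C9, Hc, Mbl2, C8a and Masp1, and the 1 was C8g. In fits without 1 mouse, the highest edgeR adjusted p was 0.189 for Mbl2, 0.143 for C8g, 0.0708 for C8a and 0.0643 for Masp1. For C4b, C9 and Hc it stayed under 0.05. In NASH+Exercise against Control, 11 rose by the adjusted p alone after TMM (15.6% of all genes) and 17 under library size alone (24.3% of all genes passed in either direction). Of the 11, C2, C4bp, C6, Cfi, Masp1 and Serping1 exceeded 0.05 in at least 1 fit without 1 mouse (highest edgeR adjusted p from 0.0679 to 0.183). The myeloid count did not depend on the scaling, with 6 of 7 rising under either.

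Markers of myeloid cells moved with the myeloid members. Of 11 macrophage and Kupffer cell markers, 10 were called higher in NASH (15.3% of all genes) and 9 in NASH+Exercise against Control (10.4% of all genes). The median log2 fold changes of these markers were 3.23 and 2.98. Their summed level lay between 76.5 and 155 TPM among Control mice, between 1193 and 1588 TPM among NASH mice, and between 775 and 995 TPM among exercised mice. Csf1r, the growth factor receptor of macrophages, had 2.46 ± 0.23 (SE, edgeR adjusted p = 3.48e-05) in NASH, Adgre1, which encodes F4/80, 2.87, Cd68, a lysosomal macrophage protein, 3.35, and Clec4f, which marks Kupffer cells, 1.48. The macrophage gene Gpnmb (8.40) had the highest log2 fold change of the list. Markers of neutrophils, which also carry these receptors, summed to 8.81 to 16.3 TPM in Control, 86.8 to 112 TPM in NASH and 51.1 to 81.96 TPM in NASH+Exercise, and 4 of 6 were called higher in NASH (15.3% of all genes). Markers of other cell types rose in NASH as well. Called higher were 5 of 8 stellate and fibroblast, 2 of 4 cholangiocyte, 3 of 6 T and B cell and 1 of 6 sinusoidal endothelial markers (15.3% of all genes). Their median log2 fold changes were 1.87, 1.64, 1.32 and 0.52. Of 2 adipocyte markers tested, 1 was called higher and 1 lower. The part of cell number in the C1q result was not tested. The hepatocyte markers had a median of -0.60 in NASH (-0.25 under library size alone, with 1 of 8 lower by the adjusted p). Of the 8, 0 were called by edgeR, DESeq2 or limma on TPM. By the edgeR adjusted p alone 3 of 8 were lower, against 14.4% of all genes. An unadjusted p under 0.05 was found for 4, a share near that of all genes (6170 of 13619).

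The sum of the C1q chains over Csf1r in TPM was 12.9, 13.00 and 10.7 in Control, 11.5, 15.8 and 13.3 in NASH and 13.5, 14.9 and 14.6 in NASH+Exercise, ranges that overlap. Over Cd68 its group means were 14.5 ± 1.5, 8.86 ± 0.992 and 9.76 ± 0.463 (SD, n = 3). Over Clec4f they were 5.17 ± 0.428, 12.7 ± 5.41 and 8.67 ± 0.486 (SD, n = 3). The means over Lyz2 were 3.88 ± 1.14, 1.49 ± 0.324 and 1.74 ± 0.114, and over Cd5l 4.76 ± 0.666, 3.12 ± 0.505 and 2.95 ± 0.0166 (SD, n = 3). Of these 5 ratios, those to Cd68, Lyz2 and Cd5l were lower and that to Clec4f higher in every mouse on the Ath diet than in every Control mouse. These ratios were added after the data were seen and carry no test.

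A list of 30 other complement genes was looked at beside the members, with 29 of them in the files and 22 tested. In NASH, 6 were called, all higher, against 15.3% of all genes. Vsig4, a receptor for C3 fragments on Kupffer cells, had 2.02 ± 0.24 (SE, edgeR adjusted p = 0.000132). Itgam, Itgax and Itgb2, which encode the subunits of complement receptors 3 and 4, had 3.78, 5.05 and 3.71 (edgeR adjusted p = 3.49e-05, 2.36e-05 and 7.89e-06). Cd93 had 1.24 and Susd2, a sushi-domain protein, 1.40. By the adjusted p alone 7 were higher and 3 lower, against 21.2% and 14.4% of all genes, so the lower count is near the background. Among them were C5ar2 (0.62, edgeR adjusted p = 0.0442), which was higher, and C1qbp (-0.51, edgeR adjusted p = 0.0196), which was lower. Between NASH+Exercise and NASH, 0 of the 22 were called by edgeR, DESeq2 or limma. In edgeR 5 of the 22 had an unadjusted p under 0.05, beside 2078 of 13619 genes. Between NASH+Exercise and Control, edgeR called 4, namely Vsig4, Itgam, Itgax and Itgb2, against 13.5% of all genes.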

How the data were processed

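Per the labels, mRNA was isolated from total liver RNA. Read length and strand setting were not given in the sources used here. Per the submitters' processing notes, HISAT2 2.1.0, Bowtie2 2.2.5, RSEM 1.2.8 and the build GRCm38.p6 were used. The authors deposited, for each mouse, estimated counts per gene (the RSEM estimate of fragments, which divides reads shared by similar genes), TPM, which relates these counts to transcript length and to all transcripts of the library, and FPKM, a length-scaled value that was not analysed here. The study's methods used DESeq2 with thresholds of 0.05 on the adjusted p and of 1 on the size of the log2 fold change.

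Estimated counts were rounded to whole numbers. Genes were kept by filterByExpr (minimum count 10, minimum total 15), which left 13619. All 9 mice entered 1 edgeR 4.0.16 fit (R 4.3.3, TMM, robust quasi-likelihood F test, group as the only term, 6 residual degrees of freedom), and p-values were adjusted over all genes by Benjamini-Hochberg, with the thresholds of the study. Standard errors were the log2 fold change over the square root of F. The fitting script was tested on simulated data. Group came from the sample labels, and Control, NASH and NASH+Exercise had 3 mice each. The C4a share was compared by an exact permutation test over mice. The alternatives were DESeq2 1.42.0, limma 3.58.1 on log2(TPM + 1), other size factors, library size alone, no filter, other call thresholds, fits of 2 groups and leaving out each mouse. Every member was described, by role, and genes of other lists were named where they were called or define a cell type, a few of them after their values were seen. The members and lists were chosen with earlier results of these data known. Values of some genes of the list of other complement genes are not reported here.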

Additional observations from a re-analysis of the deposited data

How the results depend on the processing

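No paired analysis was possible because no replicate number occurs in more than 1 group. With DESeq2, with other size factors (RLE) and with fits of the 2 groups compared, the members called numbered 7, 2 and 11 in NASH against Control, NASH+Exercise against NASH and NASH+Exercise against Control, the counts given above, and library size alone gave 10, 2 and 12. limma on TPM called 11 members in NASH against Control. The adjusted p alone gave 14 in NASH against Control and 18 in NASH+Exercise against Control. glmTreat, which tests against the fold threshold itself, gave 0 in NASH+Exercise against NASH (2 at an unadjusted p under 0.05) and 7 in NASH+Exercise against Control. In the latter comparison glmTreat lost the calls of C4b, C9, Hc and Susd4 (glmTreat adjusted p of 0.0697 or more). Without the filter, 1 member was called in NASH+Exercise against NASH. Leaving out 1 mouse gave 7 to 8, 0 to 2 and 9 to 11. The middle count was 0 without Control replicate 3, any NASH mouse, or NASH+Exercise replicate 18 or 22, and 1 without Control replicate 4.

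Over all genes, NASH against Control gave 1309 calls with glmTreat, 4846 with the adjusted p alone and 2152 to 2580 without 1 mouse. The comparison of NASH+Exercise with NASH gave 174 with DESeq2, 103 with limma on TPM, 0 with glmTreat (161 at an unadjusted p under 0.05) and 0 to 34 without 1 mouse. That of NASH+Exercise with Control gave 773 with glmTreat, 1068 with limma on TPM, 3423 with the adjusted p alone and 1557 to 1826 without 1 mouse. In CPM after TMM, the sums of hepatocyte members had ratios of 1.27 in NASH against Control and 1.12 in NASH+Exercise against NASH, where TPM gave 0.93 and thus the other direction, and those of myeloid members 4.57, 0.884 and, in NASH+Exercise against Control, 4.04. The C4a share without 1 mouse differed by -1.14 to -0.25, 5.004 to 7.51 and 4.27 to 6.77 percentage points.

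All 96 log2 fold changes of members kept their sign and their side of the thresholds with DESeq2 and with RLE. Elsewhere signs turned only where a member had not passed the test. Library size alone gave log2 fold changes of 0.36 for C4a, 0.10 for C8b, 0.22 for Cd59a, 0.042 for Masp2 and 0.0065 for Mbl1 in NASH against Control. It gave -0.055 for C1ra, -0.054 for C1s1, -0.080 for C2, -0.17 for Cd59a, -0.046 for Cfb, -0.19 for Masp1 and -0.016 for Serping1 in NASH+Exercise against NASH. It also gave 0.023 for C8g, 0.050 for Cd59a and 0.034 for Fcna in NASH+Exercise against Control. limma on TPM gave 0.45 for C4a, 0.19 for C8b, 0.30 for Cd59a, 0.039 for Masp2 and 0.11 for Mbl1 in NASH against Control. This tool gave -0.15 for C1ra, -0.16 for C1s1, -0.17 for C2, -0.078 for C4b, -0.011 for C4bp, -0.26 for Cd59a, -0.14 for Cfb, -0.082 for Clu, -0.27 for Masp1 and -0.11 for Serping1 in NASH+Exercise against NASH. It further gave 0.050 for C8g, 0.041 for Cd59a and 0.041 for Fcna in NASH+Exercise against Control. Fits of 2 groups gave 0.0048 for C3 and 0.016 for Cd55, and no filter gave 0.0032 for Cd55, in NASH+Exercise against NASH. Fits without 1 mouse ranged over -0.080 to 0.30 for C1ra, -0.054 to 0.14 for C1s1, -0.42 to 0.36 for C4a, -0.059 to 0.30 for C6 and -0.083 to 0.56 for Cd55 in NASH against Control. They ranged over -0.15 to 0.14 for C3, -0.71 to 0.077 for C3ar1, -0.14 to 0.14 for Cd55, -0.30 to 0.0096 for Cfp, -0.052 to 0.10 for Masp1 and -0.36 to 0.00027 for Mbl2 in NASH+Exercise against NASH. The ranges were -0.28 to 0.087 for C8g, -0.064 to 0.56 for Cd55 and -0.063 to 0.23 for Masp2 in NASH+Exercise against Control. The cause of these differences was not tested. With 3 mice per group, the calls of members between NASH+Exercise and NASH were lost in most fits without 1 mouse. These included the fit without Control replicate 3, a mouse of neither group. The log2 fold changes of C4a stayed between 3.06 and 3.59 and those of Susd4 between 2.13 and 2.60. C7, C3ar1 and C5ar1 had few counts.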

Other observations

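Of 20 acute phase genes, plasma proteins whose synthesis in hepatocytes changes in inflammation, 12 were called higher and 1 lower (Hamp) in NASH against Control (15.3% and 3.03% of all genes), and 12 were called higher in NASH+Exercise against Control (10.4% of all genes). Their summed level was 20649, 21857 and 25586 TPM in the Control mice, 55423, 54763 and 49345 TPM in the NASH mice and 50688, 69320.0 and 43559 TPM in the NASH+Exercise mice. Between NASH+Exercise and NASH, 1 of them was called, Orm3 at 1.58 ± 0.23 (SE, edgeR adjusted p = 0.0405), where 0.14% of all genes were called. Under library size alone Orm3 had 1.35 (edgeR adjusted p = 0.0851) and was not called. Calls over all genes in this comparison numbered 0 to 34 when 1 mouse was left out.

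Of 13 genes that livers of male mice express more than those of females, 7 were called lower and 1 higher in NASH against Control (3.03% and 15.3% of all genes), and 6 were called higher in NASH+Exercise against NASH (0.103% of all genes), namely Mup1, Mup7, Mup12, Cyp7b1, Cyp2u1 and Nudt7, in the comparison in which C4a was called. Under library size alone 4 of the 13 passed the adjusted p there. Their summed level was 32168, 38348 and 19866 TPM in the Control mice, 35591, 39191 and 40419.9 TPM in the NASH mice and 49659.6, 51579.6 and 61239.7 TPM in the NASH+Exercise mice, so the sum was not lower in NASH, unlike the calls. Mup1, a urinary pheromone carrier, had 6.62 ± 0.94 (SE, edgeR adjusted p = 0.0405) there and Cyp7b1, an oxysterol hydroxylase, 2.06 ± 0.30 (SE, edgeR adjusted p = 0.0405). All 9 mice were male. Values of single Mup genes are uncertain because their transcripts are hardly distinguishable.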
